A study of Mus musculus and Acomys cahirinus with 25 samples.

Results

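Matrix metalloproteinases (MMPs) were followed through 10 genes, Mmp2, Mmp3, Mmp9, Mmp10, Mmp11, Mmp12, Mmp13, Mmp14, Mmp19 and Mmp28, chosen by symbol among the 24500 gene symbols counted in each of 25 RNA-seq libraries of full-thickness skin wounds. All 10 symbols were present in every library, and all 10 passed the low-count filter in every comparison but 1, in which Mmp19 did not. Of the libraries, 13 came from laboratory mice (wounded at 4 weeks of age, all harvested on post-wound day 14, PWD14) and 12 from African spiny mice (Acomys cahirinus, 2 months of age). The laboratory mouse epidermis was sampled as wound center (2 wild-type libraries) and wound margin (2), and the dermis as wound center (5 wild-type, WT, and 2 K14-Cre-Twist1 knockout, KO, libraries) and wild-type wound margin (2). The study's main mouse strain was C57BL/6J. The KO mice came from a cross of a Twist1 conditional line with a K14-Cre line, their controls were wild-type Twist1+/+ mice, and the strain of neither is given in the labels. In the KO mice a keratin 14 promoter drives Cre recombinase, so Twist1 is deleted in keratinocytes and not in the cells of the dermis. The spiny mouse libraries were all labelled wild type. At PWD0 they came from skin before wounding (1 epidermis and 2 dermis libraries). Whole wounds were taken at PWD14 (2 and 1), PWD21 (2 and 2) and PWD28 (1 and 1). Skin and wounds were separated into epidermis and dermis.

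MMPs are zinc-dependent endopeptidases that cut the proteins of the extracellular matrix. Most are secreted as inactive precursors, whose propeptide must be removed by another protease, and the active enzymes are held in check by the TIMP proteins and by the membrane-anchored inhibitor Reck. In healing skin they are known for clearing the provisional matrix, loosening keratinocytes from the basement membrane and remodelling collagen. Among the 10 genes, Mmp2 and Mmp9 encode the gelatinases, which cut denatured collagen and basement membrane collagen. Mmp13 encodes a collagenase of fibrillar collagen. Mmp3, Mmp10 and Mmp11 encode stromelysins, of which the first 2 can activate other MMPs. Mmp12 encodes macrophage elastase. Mmp14 encodes a membrane-anchored enzyme that activates pro-MMP2 at the cell surface. Mmp19 and Mmp28 encode secreted MMPs, and Mmp28 (epilysin) is known from keratinocytes.

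On the mm10 genome build, 4 of the 10 genes lie together on chromosome 9, Mmp13 (chr9:7272514-7283331), Mmp12 (chr9:7344397-7369499), Mmp3 (chr9:7445822-7455975) and Mmp10 (chr9:7502352-7510240), all on the plus strand, within a cluster of 10 MMP genes that spans 427 kb. The other 6 are scattered: Mmp2 on chr8:92827291-92853420, Mmp9 on chr2:164948219-164955850, Mmp11 on chr10:75923222-75932502, Mmp14 on chr14:54431612-54445364, Mmp19 on chr10:128790910-128800824 and Mmp28 on chr11:83440768-83463071, of which Mmp11 and Mmp28 are on the minus strand. Promoters of MMP genes in this cluster are known for a binding site of AP-1, the Fos and Jun transcription factor dimer. The 100 bases before the RefSeq start site of the 4 cluster genes and of Mmp11 (RefSeq, mm10, each on the strand of its gene, 5′ to 3′) are shown for comparison, with the AP-1 site (TGAGTCA, or TGACTCA on the other strand) in capitals.
Mmp13, chr9:7272414-7272513: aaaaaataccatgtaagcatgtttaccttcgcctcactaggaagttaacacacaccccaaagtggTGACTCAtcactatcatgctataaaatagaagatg
Mmp12, second start, chr9:7347274-7347373: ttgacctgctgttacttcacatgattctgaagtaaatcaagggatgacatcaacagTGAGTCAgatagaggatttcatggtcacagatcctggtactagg
Mmp3, chr9:7445722-7445821: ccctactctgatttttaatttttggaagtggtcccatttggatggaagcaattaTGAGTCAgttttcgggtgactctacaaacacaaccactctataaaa
Mmp10, chr9:7502242-7502341: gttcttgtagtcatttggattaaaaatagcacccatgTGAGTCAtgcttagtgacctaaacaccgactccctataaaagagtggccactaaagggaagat
Mmp11, no site: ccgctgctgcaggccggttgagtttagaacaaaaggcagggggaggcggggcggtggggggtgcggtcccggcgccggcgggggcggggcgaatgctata

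The 7 letters were found in this window in all 4 members of the cluster and in none of the other 3 members with a promoter entry, Mmp11, Mmp14 and Mmp28. Mmp12 has 2 start sites, and only the second had the letters. The 11 other MMP genes with an entry were searched over a wider window of 300 bases around the start site. There 3 had the letters, Mmp1a, Mmp1b and Mmp7 of the same cluster, while Mmp8, Mmp20 and Mmp27 of that cluster did not. Of all 32851 promoter windows of 300 bases, 1709 (5.20%) held them. Over all 32851 promoter windows of 100 bases, 619 (1.88%) held them. Such a match is a description of these letters, not evidence of binding.

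Reads on genes ranged from 19413261 to 86532134 in the laboratory mouse libraries and from 5669760 to 34751956 in the spiny mouse libraries, and levels are given as CPM, each count scaled to the total of all gene rows. The detection floor of 3 counts stood at 0.154 CPM or less in the former and 0.529 CPM or less in the latter, and covers counting error only. Changes come with an FDR, a false discovery rate over all tested genes, from edgeR's quasi-likelihood test. Spiny mouse reads were counted on the mouse genome, and levels are therefore not compared between species. Shares and ranks among the genes of the spiny mouse may also reflect unequal mapping, which was not tested. Within each species Krt5 was higher in every epidermis library than in any dermis library, and Col1a1 and Pdgfra were higher in every dermis library. Krt14 reached 4707 CPM in the KO dermis, within its range of 3200 to 7072 CPM in the margin epidermis. Krt5 was at 1907 to 3237 CPM in the spiny mouse dermis at PWD0, and Col1a1 at 1601.5 to 1876 CPM in the center epidermis. By their library numbers, the 5 wild-type wound center libraries of the dermis were divided into 2 sets. Set A holds replicates 1 and 2, numbered close to the margin libraries, and set B replicates 3 to 5, numbered close to the KO libraries. The labels name no batch. Mmp2, Mmp9, Mmp10 and Mmp14 were higher, and Mmp12 lower, in every set B library than in set A. How many of all genes separated in this way was not counted. The comparisons within the dermis each used the libraries of 1 set. In set B replicate 4, Mmp2, Mmp3, Mmp9, Mmp10, Mmp13, Mmp14 and Mmp19 had their highest value of all 9 dermis libraries. The share of all genes that peaked in this library was not counted. Its summed CPM of 10 neutrophil markers was 872, against 124 and 187 in the rest of set B. In bulk tissue, fewer cells of a type and less RNA per cell cannot be told apart.

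**Figure D1:**
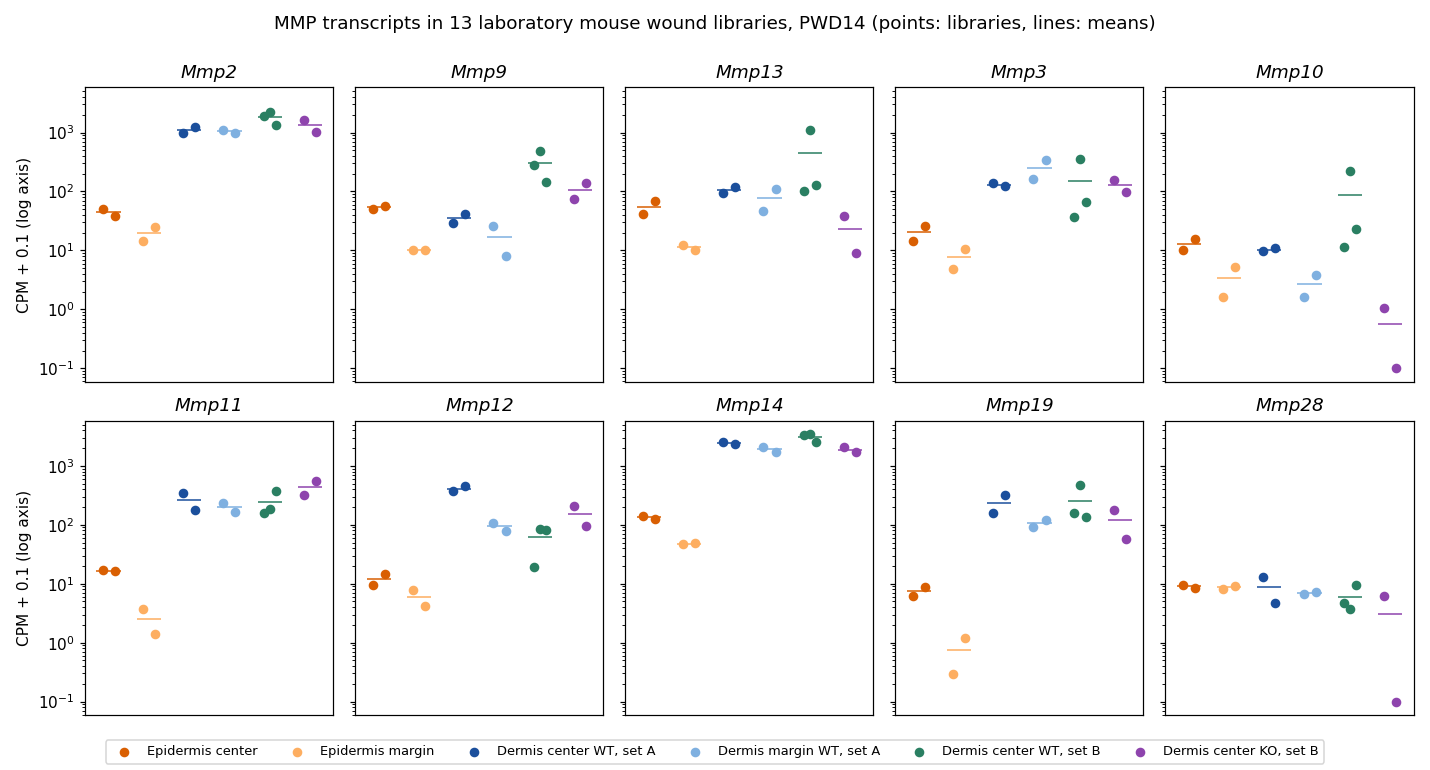
CPM of the 10 MMPs in the 13 laboratory mouse libraries at PWD14 (log axis, 0.1 added so that zeros can be drawn), with 1 panel a gene, 1 point a library and a line at the group mean. In the epidermis the center libraries lie above the margin libraries for every gene but Mmp28, and in the dermis the 3 wild-type libraries of set B spread widest for Mmp10, from 11.3 to 224 CPM, and Mmp13, from 104 to 1101 CPM.

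The epidermis of the wound center was compared with that of the wound margin because new hair placodes form in the center. Mmp9 and Mmp14 were higher in the center at an FDR under 0.05. The others did not pass this threshold, though all but Mmp28 lay higher in both center libraries. How many of all genes separated in this way was not counted. The gelatinase gene Mmp9 stood at 50.8 and 56.8 CPM in the 2 center libraries and at 10.1 and 10.2 CPM in the 2 margin libraries. The groups lay far apart and the margin libraries were nearly equal, giving a log2 fold change of 2.31 ± 0.24 (SE, FDR = 0.0367). Mmp14, which activates pro-MMP2, had 140 and 127 CPM in the center and 46.2 and 48.5 CPM in the margin, again without overlap (log2 fold change 1.39 ± 0.20, FDR = 0.0455).

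The collagenase gene Mmp13 had 41.2 and 69.8 CPM in the center against 12.2 and 9.98 CPM in the margin. Its fitted difference was as large as that of Mmp9 but its center libraries differed more (log2 fold change 2.23 ± 0.36, FDR = 0.0588). Mmp11, the stromelysin of stromal cells, had 16.8 and 16.1 CPM against 3.57 and 1.29 CPM (log2 fold change 2.83 ± 0.53, FDR = 0.0742), and Mmp19 had 6.04 and 8.54 CPM against 0.198 and 1.11 CPM (3.09 ± 0.61, FDR = 0.0786). For both genes the ratio between the 2 margin libraries was larger than that between the center libraries. Mmp2 stood at 50.8 and 38.0 CPM against 14.5 and 24.9 CPM, Mmp10 at 10.04 and 15.4 CPM against 1.502 and 5.04 CPM, and Mmp3 at 14.4 and 25.8 CPM against 4.76 and 10.3 CPM. These 3 did not overlap between center and margin either, and their FDRs were between 0.138 and 0.184. Mmp12 had 9.26 and 14.6 CPM against 7.77 and 4.09 CPM (FDR = 0.282). Mmp28, the epilysin gene, had 9.42 and 8.52 CPM in the center and 8.19 and 9.04 CPM in the margin. Its values overlapped, and its log2 fold change was -0.04 ± 0.30.

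Of the 10 MMPs, 2 therefore passed the FDR threshold in the upward direction, where 0.882% of all 14165 tested genes did, and none passed it downward, where 0.36% did. At an unadjusted p under 0.05, which the study's methods also name as a threshold, 8 of the 10 were higher in the center, against 13.1% of all genes higher and 10.4% lower. Their median log2 fold change was 1.57, and that of all tested genes -0.02. Summed over the 10 genes, the center libraries held 349 and 381 CPM and the margin libraries 109 and 125 CPM. Which MMPs were called hung on single libraries. Without center replicate 1 only Mmp13 was called, without center replicate 2 none was, and without margin replicate 1 or 2 the test called 9 and 8 MMPs, with 5508 and 7405 genes called in all against 176 with all libraries. Both calls were also lost with edgeR's earlier form of the quasi-likelihood estimate.

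Among the genes that restrain or start MMP activity, 1 of 4 tested inhibitors passed the threshold. Timp3, the inhibitor bound to the matrix, had 7.51 and 5.63 CPM in the center and 33.0 and 30.4 CPM in the margin (log2 fold change -2.37 ± 0.29, FDR = 0.0369). Of 5 tested genes of the activating proteases and their partners 1 rose, Plat, the tissue plasminogen activator (2.67 ± 0.36, FDR = 0.0421). None of the 10 other MMP genes tested passed. Markers of other cells moved with these values. The 15 fibroblast markers summed to 6203 to 7506 CPM in the center and 1106 to 2886 CPM in the margin, with 14 higher and 2 called. The 10 neutrophil markers summed to 254 to 405 and 41.4 to 111 CPM, and of the 4 tested none was called. That list holds S100a8 and S100a9, which wound keratinocytes also make. Its defining marker Ly6g was at 0 in all 4 libraries, and the other, Csf3r, at no more than 1.016 CPM. The 7 endothelial markers summed to 22.1 to 33.1 CPM in the center and 1.63 to 7.71 CPM in the margin, with all 7 higher, 5 at an unadjusted p under 0.05 and none called. Their part in the MMP differences was not tested.

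In the dermis, the wound center and margin were compared within set A, and Mmp12 was the 1 MMP that passed the test. The macrophage elastase gene had 371 and 450 CPM in the center and 109 and 79.7 CPM in the margin, a 4.36-fold difference of the means. Center and margin lay far apart (log2 fold change 2.20 ± 0.22, FDR = 0.00148). The wild-type center libraries of set B, which were not part of this test, held 18.9, 84.8 and 82.8 CPM and so lay at or below the margin values. With all 5 center libraries in the test the log2 fold change of Mmp12 was 1.22 and its FDR 0.474, and in 1 fit over all 13 laboratory mouse libraries it was 2.20 with an FDR of 0.385. The 12 macrophage markers summed to 4490 to 5400 CPM in the set A center, 3405 to 4600 CPM in the margin and 5498 to 7057 CPM in the set B center. Of the 12, 11 were higher in the set A center than in the margin, 3 at an unadjusted p under 0.05 and none called, and their part in the Mmp12 values was not tested.

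Mmp19 had 157 and 315 CPM in the center and 92.4 and 119 CPM in the margin (log2 fold change 1.24 ± 0.29, FDR = 0.0865). Mmp3 went the other way, with 138 and 123 CPM in the center and 162 and 342 CPM in the margin (-0.84 ± 0.29, FDR = 0.227). Mmp10 had 9.79 and 10.7 CPM against 1.55 and 3.70 CPM, and Mmp9 29.4 and 41.8 CPM against 25.8 and 7.89 CPM. These 4 genes did not overlap between center and margin, but none passed the FDR threshold. The share of all genes without overlap was not counted here either. Mmp14 was 2516 and 2391 CPM in the center and 2091 and 1743 CPM in the margin, also without overlap (log2 fold change 0.44 ± 0.22, FDR = 0.364). Mmp2 was 972 and 1251 CPM against 1120.1 and 984 CPM, Mmp11 348 and 180 CPM against 234 and 167 CPM, Mmp13 94.3 and 117 CPM against 45.7 and 112 CPM, and Mmp28 12.9 and 4.53 CPM against 6.63 and 7.17 CPM. These 4 genes overlapped between center and margin.

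Thus 1 of 10 MMPs passed upward and none downward, against 0.116% and 0.735% of the 14698 tested genes, and at an unadjusted p under 0.05 there were 4 higher and 1, Mmp3, lower, against 5.11% and 10.7% of all genes. None of 7 other MMP genes, 4 inhibitors and 5 activating protease genes passed in edgeR's quasi-likelihood test, and 2 of the last had an unadjusted p under 0.05. Keratinocyte markers were lower in the center, where the 14 genes summed to 612 to 851 CPM against 2806 to 5063 CPM in the margin, and 7 of them were called. Whether the center-margin difference was itself larger in the epidermis than in the dermis was tested as an interaction. None of the 10 MMPs passed the FDR threshold, against 3.48% of 15531 genes, although 7 had an unadjusted p under 0.05, against 16% of all genes. Of the 7, Mmp12 alone had the lower difference in the epidermis (-1.11). In other tests edgeR's likelihood ratio test called Mmp3 and Mmp11 and DESeq2 Mmp3. The largest were Mmp11, whose log2 fold change was higher by 2.45 ± 0.64 in the epidermis (FDR = 0.0673), and Mmp3, higher by 2.25 ± 0.59 (FDR = 0.0688), while the median of all genes was 0.31.

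**Figure D2:**
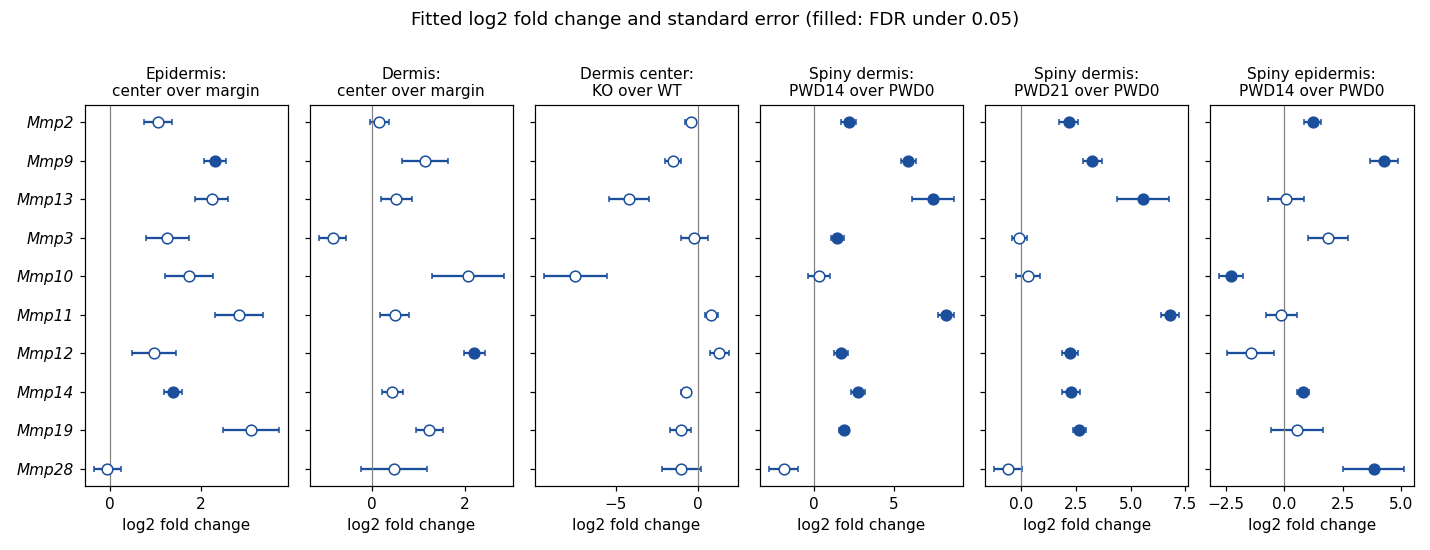
Fitted log2 fold change (x axis, a different range in each panel) of each MMP in 6 comparisons, with bars of 1 standard error and filled points for an FDR under 0.05. Filled points number 2 and 1 in the center-margin comparisons of epidermis and dermis, all higher. Of all tested genes 0.882% and 0.116% were called higher there. The KO comparison has 0, where 0.0494% of genes were higher and 0.00706% lower. The spiny mouse dermis has 8 at PWD14 and 7 at PWD21, all higher, where 7.95% and 12% of genes were higher. The spiny mouse epidermis has 4 higher and 1 lower, where 22.7% and 26.1% of genes were.

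Deletion of Twist1 in keratinocytes was compared with wild type in the dermis of the wound center, within set B. Twist1 itself, which the dermis need not lose, was 73.4 and 44.0 CPM in the KO libraries and 57.7, 36.3 and 105 CPM in the wild-type libraries, so these libraries do not check the genotype label. No MMP passed the FDR threshold with edgeR's quasi-likelihood test, and 3 had an unadjusted p under 0.05, all of them lower in the KO, against 4.54% of all genes lower and 6.98% higher. Mmp10 had 0.941 CPM and 0 counts in the KO libraries against 11.3, 224 and 23.4 CPM in wild type (log2 fold change -7.47 ± 1.91, unadjusted p = 0.00312, FDR = 0.262). Mmp13 had 37.9 and 8.90 CPM against 104, 1101 and 131 CPM (-4.21 ± 1.20, unadjusted p = 0.00794, FDR = 0.276). Mmp9 had 74.0 and 139 CPM against 286, 481 and 142 CPM (-1.51 ± 0.49, unadjusted p = 0.0146, FDR = 0.329). In each of the 3 genes both KO libraries lay below all wild-type libraries, narrowly so for Mmp9, and the wild-type libraries themselves were spread widely. The share of all genes that separated in this way was not counted. For Mmp9 the 2 wild-type libraries of set A, at 29.4 and 41.8 CPM, lay below both KO libraries.

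Mmp14 was likewise lower without overlap, at 2079.9 and 1701 CPM against 3346, 3474 and 2538 CPM (log2 fold change -0.72 ± 0.32, FDR = 0.438). Mmp12 was higher without overlap, at 205 and 96.5 CPM against 18.9, 84.8 and 82.8 CPM (1.30 ± 0.58, FDR = 0.441), but the 2 wild-type libraries of set A, at 371 and 450 CPM, exceeded both KO libraries. Mmp11 had 321 and 545 CPM against 160, 189 and 377 CPM, Mmp19 181 and 56.8 CPM against 156, 464 and 137 CPM, and Mmp2 1657 and 1023 CPM against 1905, 2267 and 1364 CPM. Mmp3 had 154 and 99.0 CPM against 36.4, 355 and 66.1 CPM, and Mmp28 had 5.98 CPM and 0 counts against 4.65, 3.68 and 9.30 CPM. Those 5 genes overlapped between the genotypes. Here too the share of all genes without overlap was not counted.

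The count of 0 in 10 stands beside 0.0494% of 14163 genes called higher and 0.00706% called lower in the KO. The median log2 fold change of the MMPs was -0.86 and that of all genes -0.07. DESeq2 called Mmp10 and Mmp14, the likelihood ratio test Mmp10, and a fit over all 13 laboratory mouse libraries Mmp10. None of 7 other MMP genes, 4 inhibitors and 5 activating protease genes passed in edgeR's quasi-likelihood test. The KO libraries also differed from wild type, and from each other, in keratinocyte markers, whose sum was 1157 CPM in KO replicate 1 and 36360 CPM in KO replicate 2 against 92.3 to 178 CPM in the wild-type libraries, with 12 of 13 tested markers at an unadjusted p under 0.05. Neutrophil markers summed to 37.7 and 90.4 CPM in the KO and 124 to 872 CPM in wild type, and their defining marker Csf3r was 17.1 to 24.4 CPM and 42.6 to 191 CPM. The part of these cells in the MMP values was not tested. Without KO replicate 1 the calls were Mmp13 and Mmp19, both lower, among 3353 genes called, and without KO replicate 2 or any wild-type replicate no MMP was called.

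Per length of exon, the make-up of the MMP transcript pool differed between the layers. In the dermis of the laboratory mouse Mmp14 and Mmp2 together held 58.1% to 83.7% of the summed CPM per kb of the 10 genes in each library, with Mmp14 first (586 CPM per kb in the set A center, 458 in the margin, 745.5 in set B and 452 in the KO) and Mmp2 second (361, 342, 599.5 and 435 CPM per kb). Mmp14 exceeded Mmp2 in every library of the set A center and the margin, while the ranges of the 2 genes overlapped in set B and in the KO. In the epidermis the same 2 genes held 34.1% to 45.8% in the center and 48.1% to 49.7% in the margin. Mmp14 was again first there, at 31.95 ± 2.20 CPM per kb in the center (SD, n = 2), followed by Mmp13, Mmp9 and Mmp2 at 20.8, 16.9 and 14.4 CPM per kb, 3 genes whose neighbours in that order overlapped. The exon length of Mmp12 in the annotation used includes a long transcript that reaches into the neighbouring gene Mmp1b, so its level per kb is understated.

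**Figure D3:**
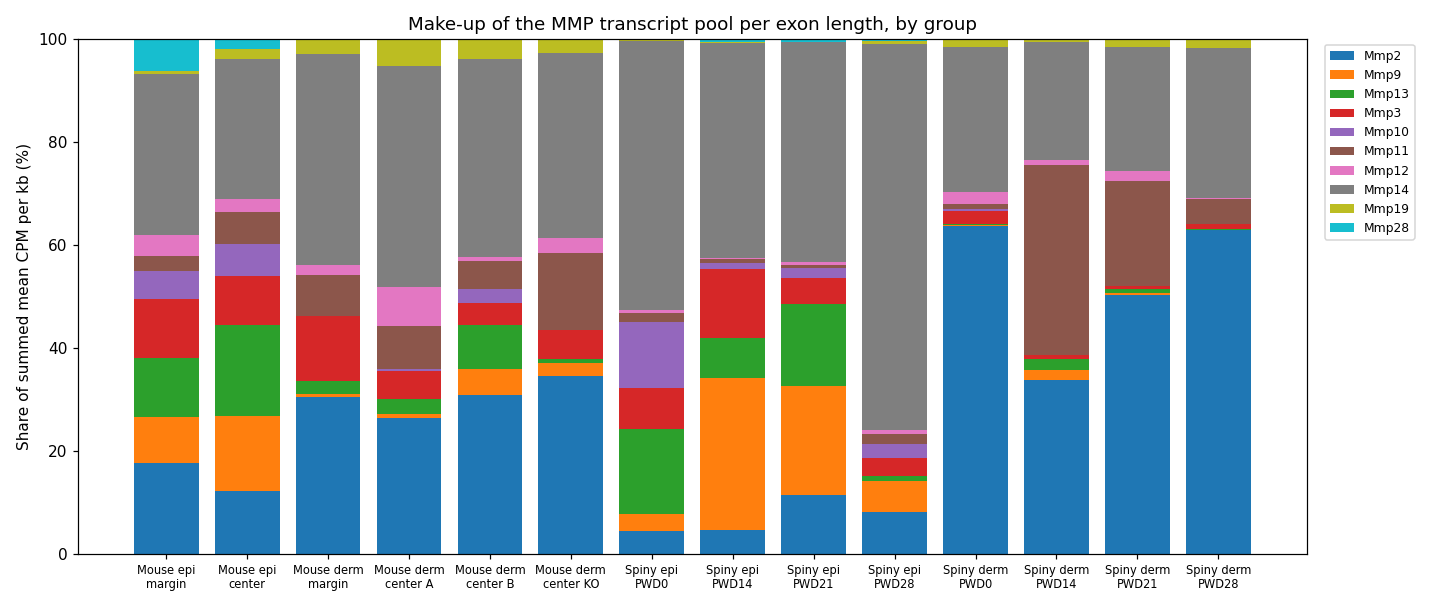
Share of each MMP in the summed mean CPM per kb of exon of the 10 genes, with 1 stacked bar for each group (y axis in percent). Mmp2 and Mmp14 fill 56.7% of the spiny mouse dermis bar at PWD14, where Mmp11 takes 36.85%, and more of every other dermis bar, while Mmp14 alone is the widest band of each spiny mouse epidermis bar.

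The layers were then compared gene by gene, epidermis against dermis. Of the 10 MMPs, 6 were lower in the epidermis of the wound center, where all 5 wild-type dermis libraries were used, and 7 in that of the margin. The center calls were Mmp2 (log2 fold change -4.41, FDR = 5.09e-05), Mmp14 (-3.70), Mmp19 (-4.34), Mmp11 (-3.22), Mmp12 (-3.33) and Mmp3 (-2.11, FDR = 0.0464). In the margin 5 of these genes had larger differences, from -6.28 for Mmp19 and -5.64 for Mmp11 to -4.20 for Mmp3, Mmp12 had -3.19, and Mmp13 was called as well (-1.97, FDR = 0.00507). No MMP was called higher in the epidermis. Mmp28 came nearest, with 8.52 to 9.42 CPM in the epidermis center and 3.68 to 12.9 CPM in the dermis center (log2 fold change 1.06, FDR = 0.118).

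Mmp9 did not follow the other gelatinase gene. Its 50.8 and 56.8 CPM in the center epidermis lay above the 29.4 and 41.8 CPM of dermis set A and below the 142 to 481 CPM of set B (log2 fold change -1.15, FDR = 0.327), and against set A alone its log2 fold change was 1.39 (FDR = 0.00436). The log2 fold change of Mmp10 also turned sign, with -1.40 (FDR = 0.378) against all 5 libraries and 1.10 (FDR = 0.047) against set A. However, its 10.04 and 15.4 CPM in the center epidermis overlapped both sets. Set A held 9.79 and 10.7 CPM and set B 11.3 to 224 CPM. In the margin Mmp9 had 10.1 and 10.2 CPM in the epidermis and 25.8 and 7.89 CPM in the dermis (log2 fold change 0.08, FDR = 0.93). The background of these calls was large, with 26.8% of 15017 genes higher and 25% lower in the center epidermis and 20.9% of 14964 genes higher and 26.8% lower in the margin epidermis. When libraries were scaled by size alone, the median log2 fold change of all genes moved from -0.08 to -0.80 in the center and from -0.16 to -0.98 in the margin, and the share of calls that were higher in epidermis fell from 51.7% to 28.3% and from 43.8% to 20.5%. Epidermis libraries were read as pairs and dermis libraries as single ends, so layer and read type cannot be told apart. All 4 tested inhibitors were also lower in the epidermis of both regions, led by Reck (-4.61) in the center and Timp1 (-6.75) in the margin. Of the other MMP genes, 4 of 8 tested were lower in the center and 4 of 7 in the margin, led by Mmp27 (-5.86) in the center and Mmp23 (-7.50) in the margin, and Mmp1b, at no more than 1.013 CPM in any library, was higher in the center (3.87, FDR = 0.0458). Among 5 activating protease genes, 2 were higher and 2 lower in the center, and 1 was higher and 2 lower in the margin, with Plat lower in both (-3.65 and -5.91).

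In the spiny mouse dermis, 8 of the 10 MMPs differed among the 4 days, against 24.7% of 15344 genes, and most of them rose after wounding. The largest change was that of Mmp11, which had 5.82 and 10.3 CPM at PWD0, 2054 CPM at PWD14, 1029.6 and 883 CPM at PWD21 and 97.8 CPM at PWD28. Every wound library lay above both PWD0 libraries, the PWD14 library by 255-fold over the PWD0 mean, and PWD28 still by 12.2-fold. The log2 fold change over PWD0 was 8.24 ± 0.48 at PWD14 (FDR = 0.00026) and 6.81 ± 0.41 at PWD21 (FDR = 0.000145). Per kb of mouse exon Mmp11 went from 0.8625% to 1.16% of the summed MMP level at PWD0 to 36.85% at PWD14. It then held 18.1% to 22.6% at PWD21 and 4.76% at PWD28. At PWD14 it had 898 CPM per kb, next to 823 for Mmp2 and 559 for Mmp14. That order rests on 1 library and on mapping to mouse genes, so it does not rank Mmp11 against Mmp2.

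Mmp13 and Mmp9 also rose from low levels and came back to them. Mmp13 had 0.176 and 1.62 CPM at PWD0, 133 CPM at PWD14, 86.1 and 6.82 CPM at PWD21 and 1.17 CPM at PWD28. Its 2 PWD21 libraries thus differed widely from each other, and the first PWD0 value rests on 1 read (log2 fold change 7.42 ± 1.32 at PWD14, FDR = 0.00728, and 5.55 ± 1.20 at PWD21, FDR = 0.0122). Mmp9 had 2.47 and 3.53 CPM at PWD0, 152 CPM at PWD14, 40.5 and 20.9 CPM at PWD21 and 3.32 CPM at PWD28. Its PWD28 library lay between the 2 PWD0 libraries, and its log2 fold change was 5.90 ± 0.46 at PWD14 (FDR = 0.00041) and 3.25 ± 0.44 at PWD21 (FDR = 0.00174).

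Mmp2 and its activator Mmp14, already abundant before wounding, rose together and stayed higher for longer. Mmp2 had 538 and 796 CPM at PWD0, 2533 CPM at PWD14, 2979 and 3382 CPM at PWD21 and 1738 CPM at PWD28. Mmp14 had 394 and 407 CPM, then 2339 CPM, 1784 and 2390 CPM, and 1098 CPM. For both genes every wound library exceeded both PWD0 libraries, and the PWD28 library stood at 2.61-fold and 2.74-fold the PWD0 mean. The log2 fold changes were 2.17 and 2.77 at PWD14 and 2.17 ± 0.42 (FDR = 0.00819) and 2.28 ± 0.39 (FDR = 0.00499) at PWD21. The 2 genes held 91.2% to 92.0% of the MMP level per kb at PWD0, 56.7% at PWD14, 70.1% to 78.5% at PWD21 and 92.1% at PWD28.

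Mmp19 and Mmp12 had their highest means at PWD21. Mmp19 had 15.5 and 15.1 CPM at PWD0, 48.9 CPM at PWD14, 107 and 102 CPM at PWD21 and 51.3 CPM at PWD28, with close replicates at both days that had a pair (log2 fold change 2.66 ± 0.29 at PWD21, FDR = 0.000705). Mmp12 had 27.7 and 35.3 CPM, then 86.7 CPM, 220 and 97.9 CPM, and 5.07 CPM, so that its last library fell below both PWD0 libraries (2.23 ± 0.39 at PWD21, FDR = 0.00504). Macrophage markers summed to 280 to 357 CPM at PWD0, 381 CPM at PWD14, 353 to 635 CPM at PWD21 and 169 CPM at PWD28. Their defining marker Adgre1 was 6.70 to 15.3 CPM at PWD0, 1.71 CPM at PWD14 and 10.45 to 11.95 CPM at PWD21. The other, Csf1r, was 17.5 to 36.7, 23.8 and 57.95 to 77.5 CPM. Of 12 macrophage markers, 1 was called higher and 1 lower at PWD14, and 1 higher at PWD21. Their part in the Mmp12 values was not tested. Mmp3 stood at 16.4 and 15.6 CPM at PWD0, 38.2 CPM in the PWD14 library, 19.5 and 13.2 CPM at PWD21 and 15.9 CPM at PWD28, a rise at PWD14 only (log2 fold change 1.48, FDR = 0.0342, and -0.09, FDR = 0.874, at PWD21). Mmp10 stayed between 1.91 and 3.74 CPM and Mmp28 between 0.824 and 5.88 CPM, and neither passed a test in the dermis.

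At PWD21, 7 of the 10 MMPs were higher than at PWD0 and none lower, where 12% of 14481 genes were higher and 14.2% lower. At PWD14, 8 were higher and none lower, where 7.95% of 15344 genes were higher and 10.5% lower. With libraries scaled by size alone, the share of calls higher at PWD14 fell from 43.0% to 30.5% and the median of all genes from -0.05 to -0.28. Their median log2 fold change was 2.25 at PWD21 and 2.03 at PWD14, and that of all genes 0.03 and -0.05. Both comparisons share the PWD0 libraries, and PWD14 and PWD28 were each 1 library, assumed to vary like the others. By their highest mean, 1 gene peaked at PWD0 (Mmp28), 5 at PWD14 (Mmp3, Mmp9, Mmp11, Mmp13 and Mmp14), 4 at PWD21 (Mmp2, Mmp10, Mmp12 and Mmp19) and none at PWD28. For Mmp14 the PWD14 value lay within the range of the PWD21 libraries. Without PWD21 replicate 1 or 2 the count at PWD21 dropped to as few as 5 and that over all days from 8 to 5.

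Of the inhibitors Timp3 fell, from 984 and 668 CPM at PWD0 to 48.6 CPM at PWD14 and 109 and 144 CPM at PWD21, with 179 CPM at PWD28. No wound library came near the PWD0 values (log2 fold change -3.89 at PWD14, FDR = 0.00266, and -2.84 ± 0.40 at PWD21, FDR = 0.00202), and none of the other 4 inhibitors passed. Plat rose at PWD21 (2.14), and Plat (2.77) and Plaur, the urokinase receptor (2.29), at PWD14, out of 5 and 6 activating protease genes tested. Of the other MMP genes, Mmp23 rose at both days (1.09 and 2.59), and Mmp27 (-2.78) and Mmp8 (-1.72) fell at PWD14. Over any day, 2 of 9 other MMP genes, 1 of 5 inhibitors and 2 of 6 activating protease genes passed. Markers of other cells shifted too. Keratinocyte markers summed to 17437 to 28068 CPM at PWD0 and 1267 to 1848 CPM at PWD21, with 12 of 14 called lower, and fibroblast markers to 78447 to 114801 CPM and 155397 to 188493 CPM, with 8 of 15 called higher. Neutrophil markers summed to 10.05 to 14.4 CPM at PWD0, 126.6 CPM at PWD14, 10.7 to 17.0 CPM at PWD21 and 10.7 CPM at PWD28, with 3 of 7 tested called higher at PWD14. Of the defining neutrophil markers, Ly6g was 0.147 to 0.882 CPM at PWD0 and 0.353 CPM at PWD14, and Csf3r 0.706 to 2.35 and 5.06 CPM. Endothelial markers summed to 109.5 to 248 CPM at PWD0, 285 CPM at PWD14, 492 to 680.3 CPM at PWD21 and 621 CPM at PWD28, with 4 of 7 called higher at PWD21. The part of all these cells in the MMP values was not tested.

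**Figure D4:**
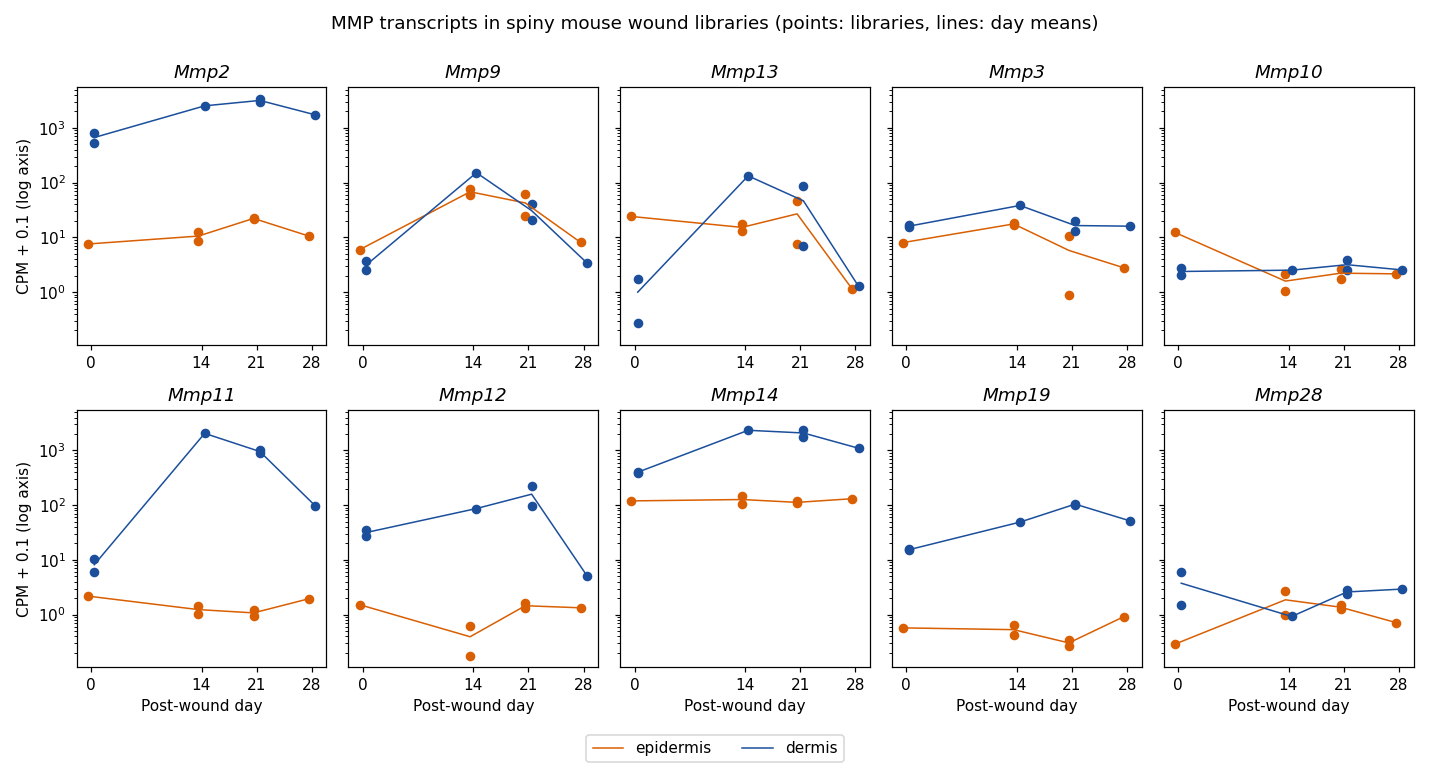
CPM of the 10 MMPs by post-wound day in the 12 spiny mouse libraries (log axis, 0.1 added), with 1 point a library and lines through the day means of epidermis and dermis. The dermis lines of Mmp9, Mmp11 and Mmp13 climb by 50.6-fold, 255-fold and 148-fold from PWD0 to PWD14, while Mmp14 in the epidermis stays between 104 and 150 CPM throughout.

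In the spiny mouse epidermis, 6 of the 10 MMPs differed among the days, but so did 59.5% of 14336 genes. Mmp9 changed most clearly, with 5.85 CPM at PWD0, 76.2 and 59.7 CPM at PWD14, 60.6 and 24.3 CPM at PWD21 and 8.01 CPM at PWD28. All 4 libraries of PWD14 and PWD21 exceeded those of PWD0 and PWD28 (log2 fold change 4.26 ± 0.60 at PWD14 over PWD0, FDR = 0.000233). Mmp10 went down, from 12.2 CPM at PWD0 to 0.930 and 2.04 CPM at PWD14, 2.57 and 1.66 CPM at PWD21 and 2.05 CPM at PWD28. All 5 later libraries lay far below the PWD0 library, and the log2 fold change at PWD14 was -2.27 ± 0.50 (FDR = 0.00361). Mmp3 had 7.93 CPM at PWD0, 18.4 and 16.6 CPM at PWD14, 10.6 and 0.799 CPM at PWD21 and 2.67 CPM at PWD28, with both PWD14 libraries highest (log2 fold change 1.86, FDR = 0.0917, over PWD0).

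Mmp13 had 24.0 CPM at PWD0, 12.9 and 17.3 CPM at PWD14, 46.1 and 7.42 CPM at PWD21 and 1.03 CPM at PWD28. The 2 PWD21 libraries enclosed all values but the last, and Mmp13 was called over all days (FDR = 0.0345) but not at PWD14 over PWD0 (log2 fold change 0.06). Mmp14 was level, with 120 CPM at PWD0, 150 and 104 CPM at PWD14, 117 and 108 CPM at PWD21 and 131 CPM at PWD28. In the fit, which allows for the composition of the PWD14 libraries, its log2 fold change at PWD14 was 0.81 over PWD0 (FDR = 0.0268), and with libraries scaled by size alone it was 0.08 and not called. Mmp2 had 7.46 CPM, then 8.53 and 12.4 CPM, 22.7 and 21.4 CPM, and 10.5 CPM, with both PWD21 libraries highest (1.21 at PWD14 over PWD0, FDR = 0.0181). Mmp11, Mmp12, Mmp19 and Mmp28 stayed between 0.0775 and 2.64 CPM in all 6 libraries. Among them Mmp28 was called higher at PWD14 (FDR = 0.0319), but its PWD0 value rests on 2 reads, under the 3 counts taken as detectable.

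At PWD14 over PWD0, 4 of 10 MMPs were higher and 1, Mmp10, lower, against 22.7% and 26.1% of the tested genes, so that the share of MMPs called was near that of all genes. PWD0 was 1 library here. Between PWD14 and PWD21, the pair of days with 2 libraries each, Mmp3 (log2 fold change 1.996, FDR = 0.0172), Mmp9 (1.20, FDR = 0.0138) and Mmp14 (0.73, FDR = 0.013) were higher at PWD14 and none of the 9 tested MMPs was lower, against 23.4% of 12889 genes higher and 23.2% lower. With scaling by size alone the share of calls higher at PWD14 fell from 46.6% to 20.7% over PWD0 and from 50.2% to 18.9% over PWD21, and the median of all genes from -0.15 to -0.865 and from -0.04 to -0.59. The call of Mmp14 was lost in both, and those of Mmp2 and Mmp28 were lost over PWD0. Of the inhibitors, Timp2 (4.002) and Timp1 (3.59) were higher and Timp3 (-3.63) lower at PWD14 than at PWD0, and Timp1 (1.96) and Timp2 (1.68) were higher at PWD14 than at PWD21. Of 6 activating protease genes 4 were higher at PWD14 than at PWD0, led by Plat (1.81), Plaur (1.78) and Furin (1.18), and of 7 other MMP genes 1 was higher, Mmp23, and 3 lower. Over any day 4 of 7 other MMP genes, 3 of 4 inhibitors and 6 of 6 activating protease genes passed. The list of neutrophil markers, with S100a8 and S100a9 that wound keratinocytes also make, summed to 1.32 CPM at PWD0 and 1514 to 2506 CPM at PWD14. It stood at 181 to 409 CPM at PWD21 and 18.9 CPM at PWD28, while the defining markers Ly6g and Csf3r stayed at or below 0.514 CPM throughout.

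Between the layers of the spiny mouse wound at PWD21, 5 of the 10 MMPs were lower in the epidermis and none higher, against 33.5% and 29.4% of 14966 genes. They were Mmp11 (log2 fold change -9.77, FDR = 5e-06), Mmp19 (-8.78), Mmp2 (-7.05), Mmp12 (-6.70) and Mmp14 (-4.09). Mmp9 was not among them, with 60.6 and 24.3 CPM in the epidermis and 40.5 and 20.9 CPM in the dermis. Its layers overlapped (log2 fold change 0.63, FDR = 0.277), as did those of Mmp13 (-0.59), whose replicates differed widely in both layers. All 5 inhibitors and 8 of 10 other MMP genes tested were lower in the epidermis, led by Timp4 (-5.98) and Mmp27 (-10.42), and of 5 activating protease genes 2 were higher and 2 lower.

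Patterns across libraries were compared with those of all other genes by Pearson's r of log2(CPM + 1), as a description. The libraries share layers and, in part, library sets. Over the 13 laboratory mouse libraries and 13969 genes, Mmp14 was most like Cmtm3 (r = 0.998) and Col27a1 (r = 0.998), Mmp2 like Plekho1 (r = 0.997), Mmp11 like Sparcl1 (r = 0.987) and Mmp12 like Col25a1 (r = 0.973). The nearest genes to Mmp13 were Cd14 (r = 0.918) and Hmga2 (r = 0.902), and Mmp9 and Mmp10 had no gene above 0.931 and 0.895. Over the 12 spiny mouse libraries and 13766 genes, Mmp2 was most like Lox (r = 0.994), the collagen cross-linking enzyme, Mmp11 like Vstm2b (r = 0.993), Igf2bp3 and Cthrc1 (r = 0.989 each), Mmp14 like Tmem26 (r = 0.992), and Mmp19 like Zfp9 (r = 0.997) and Vcam1 (r = 0.996). Mmp13 was the 1 member whose nearest gene was another member, Mmp9 (r = 0.817).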

How the data were processed

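RNA-seq was analysed in 25 libraries, and for each the authors deposited raw read counts per gene symbol, aligned per the labels to mm10 with STAR 2.4.1d and counted with HTSeq 0.6.0. Libraries of the laboratory mouse were strand-specific and those of the spiny mouse not, and spiny mouse reads were aligned to the mouse genome. The 5 summary lines of each file, which name no gene, were left out, and gene rows held 57.7% to 69.8% of the reads of laboratory mouse files and 24.4% to 52.9% of those of spiny mouse files. Replicates were taken as labelled, without a statement there that they were separate animals, and no replicate pair agreed within sampling noise. Comparisons used R 4.3.3 with edgeR 4.0.16 (TMM, filterByExpr, quasi-likelihood F-test, Benjamini-Hochberg over all tested genes, prior count 0.125), checked on simulated counts. Library sets A and B follow the library numbers in the titles. All 10 members were named, the lists of other MMP genes, inhibitors and activators were given by counts with the 3 largest called log2 fold changes of each, and the members and lists were chosen with earlier results of these data known. Of the list of activators, 1 gene is not reported here. Exon lengths and positions are those of GENCODE vM21, promoters those of RefSeq on GRCm38. Alternatives were DESeq2 1.42.0, edgeR's likelihood ratio test and earlier quasi-likelihood estimate, RLE and library size scaling, no filter, at least 10 counts in every library, wider fits and each library left out in turn.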

Additional observations from a re-analysis of the deposited data

Results flagged for a closer look

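Among the 5 wild-type wound center libraries of the dermis, replicate 4 stood apart for 2 genes. Its Mmp10 level was 224.5 CPM, with 23.4 CPM in the next library, and its Mmp13 level was 1101.4 CPM, with 131 CPM in the next. In both genes the gap to the next library took up more of the range of the group than Dixon's 95% critical value for 5 samples allows. Chance flags about 1 in 20 groups so tested. Without this library Mmp10 in the center layer comparison had a log2 fold change of 0.58 in place of -1.40, and no MMP was called in the KO comparison, as with it.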

How the results depend on the processing

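All 44 log2 fold changes of MMPs called in a comparison of 2 groups kept their direction in every alternative run, and 27 of the 44 stayed called in all of them. The count of MMPs called moved as follows. In the epidermis center-margin comparison (2) it was 7 with the likelihood ratio test, 0 with the earlier quasi-likelihood estimate, 7 with DESeq2 and 0 to 9 with a library left out. In the dermis center-margin comparison (1) it was 2 with the likelihood ratio test, DESeq2 and the minimum of 10 counts, 0 with all 5 wild-type center libraries and in the 13-library fit, and 1 to 2 with a library left out. In the KO comparison (0) it was 1 with the likelihood ratio test and in the 13-library fit, 2 with DESeq2 and 0 to 2 with a library left out. In the interaction (0) it was 2 with the likelihood ratio test, 1 with DESeq2 and with library size only, and 0 to 2 with a library left out. In the spiny mouse, leaving out a library gave 2 to 6 for epidermis PWD14 against PWD21 (3), 5 to 8 for dermis over any day (8) and 3 to 6 for epidermis PWD14 against PWD0 (5), the last with 2 under library size only.

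None of the log2 fold changes that turned sign had been called in the comparison as reported. With library size only they were 0.052 for Mmp28 in epidermis center against margin, -0.73 for Mmp9 in the margin layers, -0.53 for Mmp10 in spiny epidermis PWD14 against PWD21, 0.030 for Mmp3 in spiny dermis PWD21 against PWD0, and -0.66 for Mmp13 and -0.16 for Mmp19 in spiny epidermis PWD14 against PWD0. With at least 10 counts in every library Mmp9 (margin layers) was -0.049, Mmp10 (epidermis PWD14 against PWD21) -0.051 and Mmp13 (epidermis PWD14 against PWD0) -0.031. Mmp10 was also -0.052 without a filter and -0.0056 in the 6-library fit, Mmp9 -0.0015 with RLE, Mmp28 0.11 in the 13-library fit, Mmp12 in the KO comparison -0.35 with all 5 wild-type libraries, and Mmp9 and Mmp10 in the center layers 1.39 and 1.10 with set A alone.

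Leaving out a library also turned signs, with these ranges: Mmp28 -0.091 to 0.012 (epidermis center-margin), Mmp11 -0.11 to 0.92 and Mmp28 -0.55 to 1.04 (dermis center-margin), Mmp3 -0.69 to 1.29 and Mmp28 -10.19 to 0.024 (KO), Mmp10 -1.77 to 0.58 (center layers), Mmp9 -0.56 to 1.26 (margin layers), Mmp10 -0.98 to 1.02 and Mmp28 -1.05 to 0.52 (interaction). In the spiny mouse they were Mmp28 -0.032 to 1.60, Mmp10 -0.66 to 0.43 and Mmp13 -1.09 to 1.58 (epidermis PWD14 against PWD21), Mmp3 -0.34 to 0.15, Mmp10 -0.034 to 0.70 and Mmp28 -1.19 to 0.60 (dermis PWD21 against PWD0), Mmp9 -0.25 to 1.18 and Mmp13 -2.54 to 2.09 (PWD21 layers), and Mmp11 -0.42 to 0.027 and Mmp13 -0.15 to 0.19 (epidermis PWD14 against PWD0). Their causes were not tested.

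Over all genes the number called ranged, across alternatives other than leaving out a library, from 0 to 1533 (epidermis center-margin, 176), 3 to 886 (dermis center-margin, 125), 0 to 787 (KO, 8), 204 to 1485 (interaction, 540) and 3853 to 6597 (spiny dermis, any day, 3795). Of 130 group means of CPM, 45 moved when scaled by TMM. A move was a change larger than the SD between replicates or, for a lone library, larger than its counting error alone. With 1 to 3 libraries a group, a lone library was assumed to vary like the others. No paired analysis was possible because the labels number no replicates across groups.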
